A study of Homo sapiens with 12 samples.

Results

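NQO1, TXN, TXNRD1, SRXN1, PRDX1, PGD, TKT, TALDO1 and ME1 are targets of the transcription factor NRF2 that reduce quinones, run the thioredoxin system or supply NADPH, and they were taken by gene name from a table of 36866 genes, in which all 9 were present. mRNA had been sequenced from THP-1 and U-937, established cell lines of monocytic acute myeloid leukemia (AML) whose genotype is labelled as complex karyotype, after 24 h with honokiol or with 0.1% DMSO as vehicle. Honokiol is a biphenol of magnolia bark, and the study used the sequencing to look for the genes and pathways that it changes in AML cells. Each of the 4 groups (THP-1 with DMSO, THP-1 with honokiol, U-937 with DMSO, U-937 with honokiol) held 3 libraries. The labels list honokiol at 20 and 35 μM without saying which line received which, so line and dose cannot be told apart in any comparison of the responses. Each line descends from 1 donor, and nothing in the labels says that replicates of a group came from separate cultures, so p-values measure the spread between these libraries, which may be technical.

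NRF2, encoded by NFE2L2, is held in the cytoplasm and passed to degradation by KEAP1 with the CUL3 ubiquitin ligase. When electrophiles or oxidants modify KEAP1, NRF2 accumulates, pairs with a small MAF protein and binds antioxidant response elements, from which BACH1 can displace it. Thioredoxin (TXN) passes electrons from NADPH, by way of thioredoxin reductase (TXNRD1), to peroxiredoxins such as PRDX1, and sulfiredoxin (SRXN1) repairs peroxiredoxins that have been overoxidized. The NADPH comes from the oxidative arm of the pentose phosphate pathway, where PGD (6-phosphogluconate dehydrogenase) acts, and from cytosolic malic enzyme (ME1). Transketolase (TKT) and transaldolase (TALDO1) make up the non-oxidative arm, and NQO1 uses NADH or NADPH to reduce quinones.

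In the coordinates of the files, which are those of GRCh38, the genes lie on separate chromosomes except for PRDX1 and PGD, both on chromosome 1. NQO1 (ENSG00000181019) spans chr16:69706996-69726668 on the minus strand and TXN (ENSG00000136810) chr9:110243810-110256507 on the minus strand. TXNRD1 (ENSG00000198431) spans chr12:104215779-104350307 on the plus strand and SRXN1 (ENSG00000271303) chr20:646615-653200 on the minus strand. PRDX1 (ENSG00000117450) spans chr1:45511036-45521938 on the minus strand and PGD (ENSG00000142657) chr1:10398592-10419808 on the plus strand. TKT (ENSG00000163931) spans chr3:53224712-53256052 on the minus strand, TALDO1 (ENSG00000177156) chr11:747415-765012 on the plus strand and ME1 (ENSG00000065833) chr6:83210402-83431051 on the minus strand.

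RefSeq (GRCh38.p14) gave a promoter window, 250 bases before to 50 bases after the start, for 8 of the 9 genes, with 9 windows since TXNRD1 has 2 starts; PRDX1 had none in the table used. The core of the antioxidant response element, written TGACNNNGC and searched on both strands, was in 4 of the 9 windows, against 13.3% of the 34943 promoters of the table. The windows that held it belong to ME1, PGD and both starts of TXNRD1. The AP-1 motif TGANTCA was in 1 of them, that of ME1, where its letters overlap the antioxidant response core, against 7.72% of all promoters. The 250 bases before the start are shown for the 3 genes that hold the core, so that its place and letters can be seen. Capitals mark the core, or its reverse complement, on the strand of the gene. A match is a run of letters and not a measured binding site.
ME1, chr6:83431052-83431301, minus strand: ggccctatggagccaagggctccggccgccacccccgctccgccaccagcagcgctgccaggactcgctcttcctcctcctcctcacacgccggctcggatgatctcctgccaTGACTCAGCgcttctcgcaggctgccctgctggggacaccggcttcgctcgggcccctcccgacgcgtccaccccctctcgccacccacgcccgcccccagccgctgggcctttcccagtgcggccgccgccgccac
PGD, chr1:10398814-10399063, plus strand: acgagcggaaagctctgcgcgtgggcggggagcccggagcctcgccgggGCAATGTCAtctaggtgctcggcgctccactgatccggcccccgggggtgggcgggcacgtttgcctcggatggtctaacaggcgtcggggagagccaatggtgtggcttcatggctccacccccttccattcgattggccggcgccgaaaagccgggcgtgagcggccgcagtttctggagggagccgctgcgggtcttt
TXNRD1, first start, chr12:104215529-104215778, plus strand: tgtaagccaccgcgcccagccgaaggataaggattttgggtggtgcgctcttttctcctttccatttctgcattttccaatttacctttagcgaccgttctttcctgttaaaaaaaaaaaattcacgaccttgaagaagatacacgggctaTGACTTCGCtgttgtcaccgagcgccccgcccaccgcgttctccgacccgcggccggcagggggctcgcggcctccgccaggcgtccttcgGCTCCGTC
TXNRD1, second start, chr12:104286782-104287031, plus strand: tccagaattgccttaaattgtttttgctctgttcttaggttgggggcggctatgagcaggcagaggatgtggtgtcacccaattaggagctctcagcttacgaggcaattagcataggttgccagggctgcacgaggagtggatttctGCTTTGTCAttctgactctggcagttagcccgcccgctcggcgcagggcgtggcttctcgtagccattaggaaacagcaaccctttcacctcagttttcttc
Before the start, the core begins at 137 bases in ME1 and at 201 bases in PGD, and ME1 holds a further match after its start, past the bases shown. In TXNRD1 it begins 99 and 8 bases before the first start and 102 bases before the second, and the last letter of the match at 8 bases lies past the bases shown, so its capitals are incomplete. The other windows, of NQO1, TXN, SRXN1, TKT and TALDO1, did not hold these letters, which says nothing about elements farther away.

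The counts of the 12 libraries summed to between 57406966 and 75065752, and since the count 4 was seen 17264 times against 6764 times for 3 and 4016 times for 5, most fragments appear to be worth 4 counts, which puts the depth at 14351741 to 18766438 fragments. DMSO replicate 1 stood apart in both lines: mitochondrially encoded genes took 13.7% of its counts in THP-1 and 12.6% in U-937, where every remaining library had 5.61% to 7.55%. In the same THP-1 library, genes with short transcripts (under 1500 bases, 1186 genes) were lower relative to genes with long ones (over 5000 bases, 2335 genes), with a difference of their median log2 FPKM of 0.454 against 0.792 and 0.887 in the other DMSO libraries of that line. In the U-937 library this difference was 0.748 against 0.854 and 0.958 with DMSO and 0.740 to 0.920 with honokiol, so it did not stand apart on this measure. All 10 myeloid markers examined, among them SPI1, CD33 and LYZ, had a mean of at least 0.5 FPKM in THP-1 cells, and 9 of 10 did in U-937 cells, where MPO was under it.

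**Figure D1:**
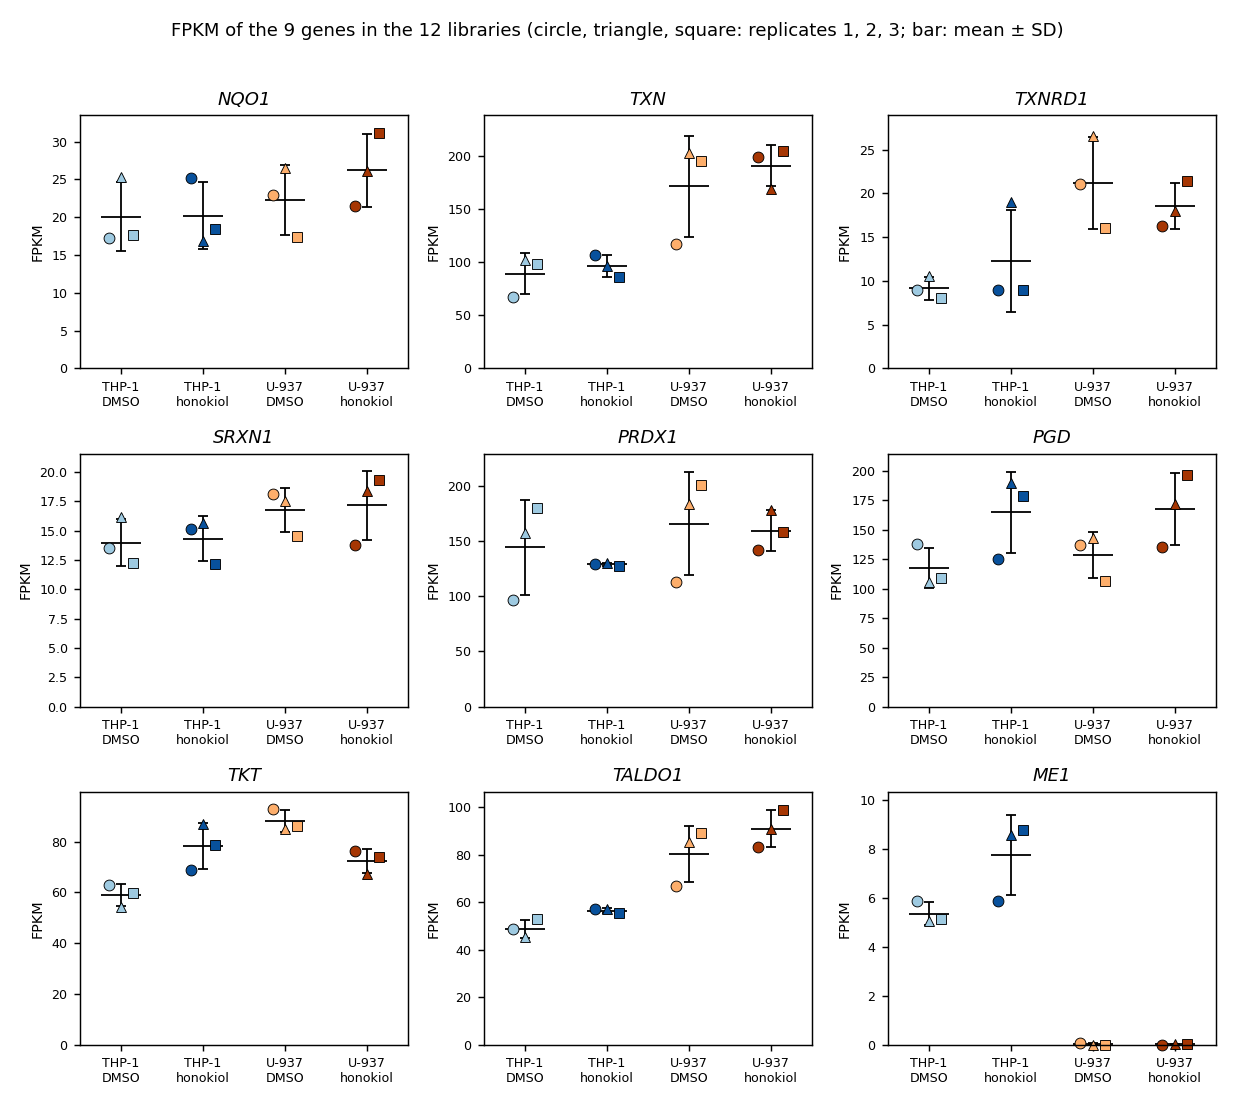
FPKM of the 9 genes (vertical axes, each from 0) in the 4 groups of line and treatment; circles, triangles and squares are replicates 1, 2 and 3, and the bars give the mean ± SD of 3 libraries. The means of TKT were 59.0 (DMSO) and 78.2 FPKM (honokiol) in THP-1, and 88.0 and 72.5 FPKM in U-937, and ME1 lay at 0.07 FPKM or less in every U-937 library.

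The genes lay over a wide range of levels. Levels are in FPKM, which divides the count by transcript length and by library size. In THP-1 cells with DMSO the order by mean level was PRDX1 (145 ± 43.1 FPKM, SD, n = 3), PGD (118 ± 17.3), TXN (89.2 ± 19.1), TKT (59.0 ± 4.38), TALDO1 (48.8 ± 3.78), NQO1 (20.1 ± 4.59), SRXN1 (14.0 ± 1.98), TXNRD1 (9.16 ± 1.29) and ME1 (5.36 ± 0.46). All neighbours in that order had ranges that did not overlap, except PRDX1 and PGD. In U-937 cells with DMSO the order was TXN (172 ± 47.6 FPKM), PRDX1 (166 ± 46.8), PGD (129 ± 19.4), TKT (88.0 ± 4.30), TALDO1 (80.2 ± 12), NQO1 (22.3 ± 4.59), TXNRD1 (21.2 ± 5.25), SRXN1 (16.7 ± 1.90) and ME1 (0.023 ± 0.040). There, the ranges of TXN, PRDX1 and PGD overlapped one with the next, as did those of TKT with TALDO1 and of NQO1, TXNRD1 and SRXN1. Ranked by mean FPKM over the 6 libraries of a line, PGD stood at 206, PRDX1 at 212 and TXN at 313 of 14600 genes in THP-1, and TXN at 145, PRDX1 at 158 and PGD at 180 of 13726 in U-937. The transcript length implied by count and FPKM was 1.11 (SRXN1) to 2.55 (TALDO1) times the longest annotated transcript, so the order between genes carries an error that the spread between libraries does not show.

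The response to honokiol was tested separately in THP-1 and in U-937 with edgeR (quasi-likelihood test on the counts), and p-values were adjusted by Benjamini-Hochberg over all genes that reached 0.5 FPKM in 3 or more of the line's 6 libraries. All 9 genes passed that limit in THP-1 and 8 of 9 in U-937, where ME1 did not. None of them had an adjusted p-value under 0.05 in either line, a level that 0.0411% of all THP-1 genes and 0.0947% of all U-937 genes reached, and the count was also 0 by DESeq2, which called 505 of 14600 genes in THP-1 and 790 of 13726 in U-937, and by limma, which called 0 genes in THP-1 and 16 to 18 in U-937. With p-values left unadjusted, 1 of 9 was under 0.05 in THP-1 (ME1, higher), against 13.1% of all genes (6.84% higher, 6.22% lower), and 1 of 8 in U-937 (TKT, lower), against 16.7% (8.25% higher, 8.44% lower). Both counts are close to those shares. The median log2 fold change of the members was 0.15 in THP-1 (all genes, -0.0011) and 0.01 in U-937 (all genes, 0.016). Honokiol and DMSO libraries did not overlap for 2 of 9 members in THP-1 (TKT and TALDO1, both higher), where this held for 13% of all genes in that direction, and for 1 of 8 in U-937 (TKT, lower), where it held for 7.5% in that direction.

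NQO1, the quinone reductase that is often read as a sign of NRF2 activity, did not pass the test in either line. Its level in THP-1 was 17.22, 25.37 and 17.65 FPKM with DMSO and 25.23, 16.86 and 18.47 FPKM with honokiol. The 2 sets lie on top of each other, each with 1 library near 25 and the others near 17. The log2 fold change was -0.04 (95% interval -0.52 to 0.44, edgeR adjusted p = 0.943). In U-937 it was 22.93, 26.51 and 17.40 FPKM with DMSO and 21.48, 26.12 and 31.10 FPKM with honokiol, a log2 fold change of 0.14 (-0.34 to 0.62, edgeR adjusted p = 0.773). The groups overlap here too, and the upper bounds of both intervals lie under the log2 fold change of 1 that the study set for a differentially expressed gene.

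TXN, the electron carrier of the system, was measured in THP-1 at 67.21, 101.93 and 98.32 FPKM with DMSO and at 106.58, 95.96 and 85.84 FPKM with honokiol. U-937 cells had 116.83, 202.89 and 195.07 FPKM with DMSO and 198.98, 169.32 and 204.74 FPKM with honokiol. In both lines the lowest library is DMSO replicate 1, and the others of a line lie close together whatever the treatment. The log2 fold changes were 0.06 in THP-1 (standard error 0.16, edgeR adjusted p = 0.884) and 0.08 in U-937 (standard error 0.20, edgeR adjusted p = 0.880). Without DMSO replicate 1 they were -0.07 in THP-1 and -0.12 in U-937, so their direction depended on that library.

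PRDX1, the peroxiredoxin that TXN reduces in the cytosol, also had its lowest value in DMSO replicate 1 in each line. With DMSO it was at 96.68, 157.08 and 180.14 FPKM in THP-1 and at 112.65, 184.11 and 200.66 FPKM in U-937. With honokiol it was at 129.02, 130.51 and 127.60 FPKM in THP-1 and at 141.56, 178.61 and 158.04 FPKM in U-937. The honokiol libraries of THP-1 differed by under 3 FPKM among themselves and lay between DMSO replicate 1 and the other DMSO libraries. The log2 fold changes were -0.20 in THP-1 (standard error 0.19, edgeR adjusted p = 0.664) and -0.14 in U-937 (standard error 0.20, edgeR adjusted p = 0.774). Without DMSO replicate 1 they were -0.39 in THP-1 (edgeR, unadjusted p = 0.0075, adjusted p = 0.257) and -0.34 in U-937 (edgeR, unadjusted p = 0.0368, adjusted p = 0.276). The high mitochondrial share of DMSO replicate 1 went with low TXN and PRDX1 in both lines, and whether it has a part in these values was not tested. PRDX1 overlaps MMACHC on the other strand, which was at 1.32 to 4.65 FPKM.

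**Figure D2:**
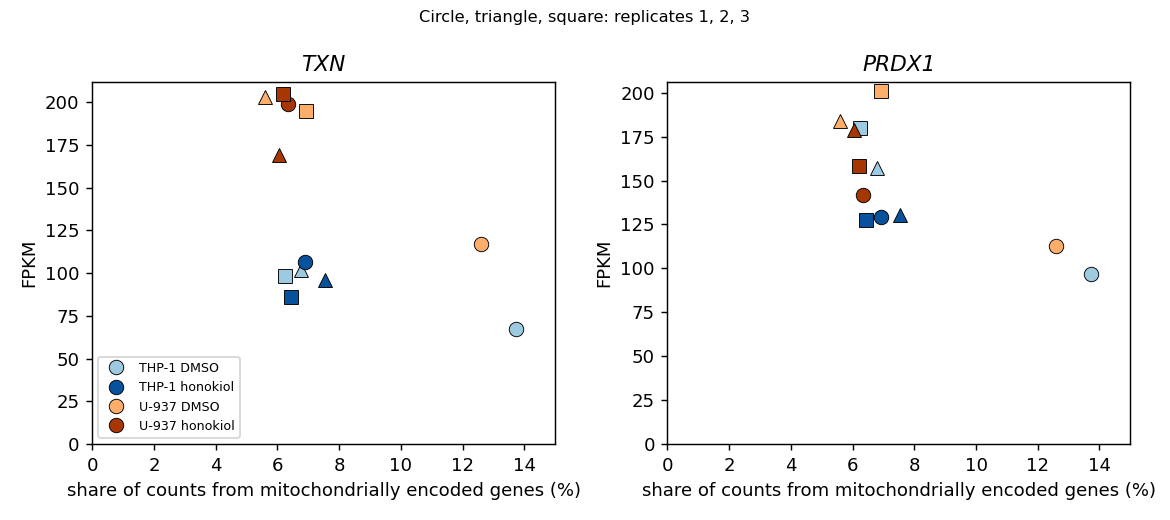
FPKM of TXN and PRDX1 (vertical axes) against the percent of a library's counts from mitochondrially encoded genes (horizontal axes); colours give line and treatment, and circles, triangles and squares are replicates 1, 2 and 3. DMSO replicate 1 of THP-1 (13.7%) and of U-937 (12.6%) stand to the right of the other libraries (5.61% to 7.55%) and have the lowest value of their line for both genes.

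TXNRD1, the selenoprotein that reduces thioredoxin, was at 8.94, 10.54 and 7.99 FPKM with DMSO in THP-1 and at 8.93, 19.01 and 8.97 FPKM with honokiol. Only honokiol replicate 2 lies above the DMSO libraries. The log2 fold change was 0.37 (standard error 0.30, edgeR adjusted p = 0.618), and it was -0.09 without that library. In U-937 the level was 21.13, 26.53 and 16.04 FPKM with DMSO and 16.27, 17.98 and 21.45 FPKM with honokiol. The ranges overlap, and the log2 fold change was -0.28 (standard error 0.21, edgeR adjusted p = 0.531), or -0.48 without DMSO replicate 3 (edgeR, unadjusted p = 0.0263, adjusted p = 0.244). TXNRD1 contains the gene model RPL18AP3, a ribosomal protein pseudogene on the same strand, listed at 90.5 to 191 FPKM, so its count may hold reads that the authors' counting split between the 2.

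SRXN1, which restores overoxidized peroxiredoxins, had group means between 14.0 and 17.2 FPKM. It was at 13.54, 16.14 and 12.26 FPKM with DMSO and 15.17, 15.66 and 12.12 FPKM with honokiol in THP-1, and at 18.12, 17.54 and 14.58 FPKM with DMSO and 13.81, 18.40 and 19.32 FPKM with honokiol in U-937. Treated and control libraries overlapped in both lines. The log2 fold changes were -0.02 (95% interval -0.41 to 0.37, edgeR adjusted p = 0.967) and -0.06 (-0.48 to 0.36, edgeR adjusted p = 0.907).

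PGD, the dehydrogenase that yields NADPH from 6-phosphogluconate, had a higher mean with honokiol in both lines without passing the test in either. In THP-1 it was at 137.54, 106.01 and 109.51 FPKM with DMSO and at 125.12, 190.12 and 178.80 FPKM with honokiol, a log2 fold change of 0.42 (standard error 0.21, edgeR adjusted p = 0.432). The U-937 values were 137.12, 142.73 and 106.69 FPKM with DMSO and 135.61, 171.67 and 196.12 FPKM with honokiol, a log2 fold change of 0.29 (standard error 0.19, edgeR adjusted p = 0.493). Honokiol replicates 2 and 3 lie above all DMSO libraries in each line, while honokiol replicate 1 lies among them. Without DMSO replicate 1 the log2 fold change in THP-1 was 0.60 (edgeR, unadjusted p = 0.0153, adjusted p = 0.310).

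TKT, which exchanges carbon units between sugars of the non-oxidative arm, differed in opposite directions in the lines. In THP-1 it was at 63.09, 54.39 and 59.59 FPKM with DMSO and at 68.99, 87.02 and 78.59 FPKM with honokiol. Every honokiol library lies above every DMSO library, and the log2 fold change was 0.34 (standard error 0.15, edgeR, unadjusted p = 0.0561, adjusted p = 0.396). That p-value was 0.0108 without DMSO replicate 1 (log2 fold change 0.45), 0.0459 without honokiol replicate 1 and 0.0288 with all 12 libraries in the edgeR fit, 0.0211 to 0.0215 by limma, and 0.114 to 0.198 in edgeR without any other single library of THP-1. In U-937 it was at 92.87, 84.77 and 86.30 FPKM with DMSO and at 76.32, 67.23 and 73.87 FPKM with honokiol. Here every honokiol library lies below every DMSO library, and the log2 fold change was -0.37 (standard error 0.14, edgeR, unadjusted p = 0.0269, adjusted p = 0.241). Without honokiol replicate 2 the unadjusted p-value in U-937 was 0.102, and without honokiol replicate 3 it was 0.0560 (edgeR). That p-value was also over 0.05 by limma on log2(FPKM + 0.5) and on log2(FPKM + 1), and in edgeR with the replicate number as a block. A group of 3 against 3 cannot give an exact two-sided permutation p-value under 0.1, so the separation of the libraries alone passes no threshold.

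TALDO1, the other enzyme of that arm, was at 48.49, 45.16 and 52.70 FPKM with DMSO and at 57.28, 56.91 and 55.23 FPKM with honokiol in THP-1. All honokiol libraries are higher, by a small margin, and the log2 fold change was 0.15 (standard error 0.12, edgeR adjusted p = 0.609). In U-937 it was at 66.60, 85.15 and 88.93 FPKM with DMSO and at 83.35, 90.94 and 98.61 FPKM with honokiol, where the groups overlap and the log2 fold change was 0.10 (standard error 0.14, edgeR adjusted p = 0.765). DMSO replicate 1 is the lowest library of U-937, and without it the log2 fold change there was 0.00, so the value rested on that library.

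ME1, which makes NADPH while turning malate into pyruvate, was at 5.89, 5.06 and 5.13 FPKM with DMSO and at 5.86, 8.57 and 8.78 FPKM with honokiol in THP-1. Honokiol replicates 2 and 3 stand above the rest, and replicate 1 lies within the DMSO range. The log2 fold change was 0.47 (standard error 0.20, 95% interval 0.0019 to 0.93, edgeR, unadjusted p = 0.0493, adjusted p = 0.381). Leaving out DMSO replicate 2 or 3, or honokiol replicate 2 or 3, lowered it to between 0.38 and 0.41, with unadjusted p-values of 0.127 to 0.151 (edgeR), and without honokiol replicate 1 it was 0.63 (edgeR, unadjusted p = 0.0111) and without DMSO replicate 1 it was 0.59 (edgeR, unadjusted p = 0.0239). Over all 16 alternatives (edgeR, DESeq2 or limma) the unadjusted p-value of ME1 in THP-1 ran from 0.0111 to 0.490 and was under 0.05 in 8. With RLE size factors it was 0.0530 (edgeR). U-937 libraries listed ME1 at 0.07, 0 and 0 FPKM with DMSO and at 0, 0.02 and 0.03 FPKM with honokiol, from 17, 0, 0, 0, 4 and 8 counts. At about 4 counts a fragment these are too few for a response to be detectable.

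Whether the lines responded differently was tested as an interaction in edgeR, with the 12 libraries together and the 16283 genes that reached 0.5 FPKM in 3 or more of them. TKT was the 1 of the 9 genes with an unadjusted p-value under 0.05, against 9.37% of all genes (4.54% in its direction, lower in U-937), and none had an adjusted p-value under 0.05, against 0.111% of all genes. For TKT the response in U-937 minus that in THP-1 was -0.73 on the log2 scale (standard error 0.19, 95% interval -1.15 to -0.30, edgeR, unadjusted p = 0.0029, adjusted p = 0.298). The unadjusted p-value stayed under 0.05 in all 23 alternatives, and the adjusted one ranged from 0.0390 (DESeq2) to 0.602 (replicate block). For TXNRD1 the difference was -0.67 (standard error 0.41, 95% interval -1.55 to 0.22, edgeR adjusted p = 0.649), and -0.21 without honokiol replicate 2 of THP-1. Among NQO1, TXN, SRXN1, PRDX1, PGD and TALDO1 it lay between -0.14 (PGD) and 0.17 (NQO1), with edgeR adjusted p-values of 0.936 or more. ME1 gave no usable difference, since it passed the limit through its THP-1 libraries alone.

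**Figure D3:**
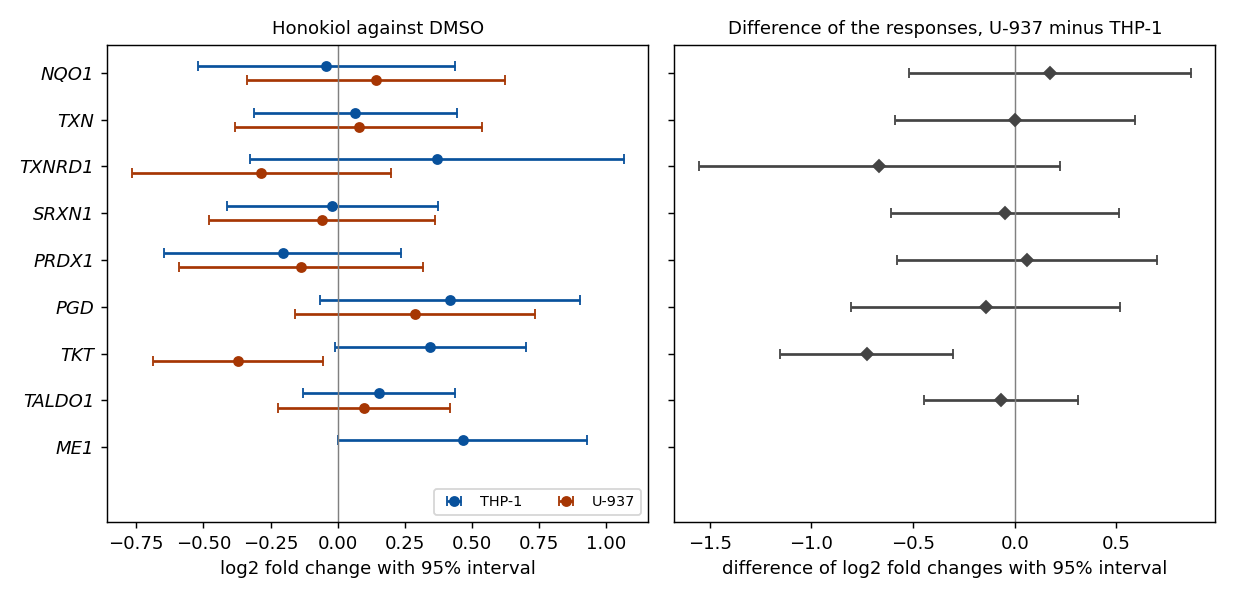
Log2 fold changes of honokiol over DMSO with 95% intervals in THP-1 (blue) and U-937 (red), left, and the difference of the responses, U-937 minus THP-1, right, from edgeR. TKT has 0.34 in THP-1 (interval reaching -0.01) and -0.37 in U-937, and its difference of -0.73 is the one drawn whose interval excludes 0; ME1 in U-937 was not tested.

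The lines were also compared in their DMSO libraries. With DMSO, 5 of the 9 had an adjusted p-value under 0.05 in the fit of all libraries, 4 higher and 1 lower in U-937, against 52.9% of all genes (24.4% higher, 28.5% lower). The count of 5 is close to that share. The lower one was ME1, which had reached the limit on low values through its THP-1 libraries alone and so had to differ, and the share over all genes holds such genes too. The same 5 genes were past the threshold in all 17 alternatives, and their libraries did not overlap, which held for 56.7% of all genes. TXNRD1 was 2.25-fold higher in U-937 (log2 fold change 1.17, standard error 0.29, edgeR adjusted p = 0.0049), with 16.04 to 26.53 FPKM against 7.99 to 10.54. TXN was 1.86-fold higher (log2 fold change 0.90, standard error 0.19, edgeR adjusted p = 0.0019). Both enzymes of the non-oxidative pentose phosphate arm were higher as well, TALDO1 1.59-fold (log2 fold change 0.66, standard error 0.12, edgeR adjusted p = 0.00066) and TKT 1.44-fold (log2 fold change 0.53, standard error 0.14, edgeR adjusted p = 0.0066). With honokiol, TKT was at 68.99 to 87.02 FPKM in THP-1 and at 67.23 to 76.32 FPKM in U-937, ranges that overlap.

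ME1 was the gene that was lower in U-937. Its fitted log2 value depends on the prior count, so the ratio of fragments, scaled to library size, is given. Over the DMSO libraries, 982 fragments in THP-1 against 4 in U-937 made ME1 239-fold higher in THP-1 (95% counting interval 98.6 to 932). All 17 counts behind the 4 fragments of U-937 came from DMSO replicate 1, and ME1 was listed at 0 in the other DMSO libraries, so without that library there is no ratio with an upper bound. Over all 12 libraries it was 332-fold higher (166 to 855), from 2587 against 7 fragments. These intervals are exact and cover counting error only. The 4 genes that did not pass were PRDX1 (log2 fold change 0.15, 95% interval -0.30 to 0.61, edgeR adjusted p = 0.558), PGD (0.08, -0.39 to 0.55, edgeR adjusted p = 0.778), NQO1 (0.11, -0.38 to 0.60, edgeR adjusted p = 0.699) and SRXN1 (0.22, -0.18 to 0.62, edgeR adjusted p = 0.336).

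**Figure D4:**
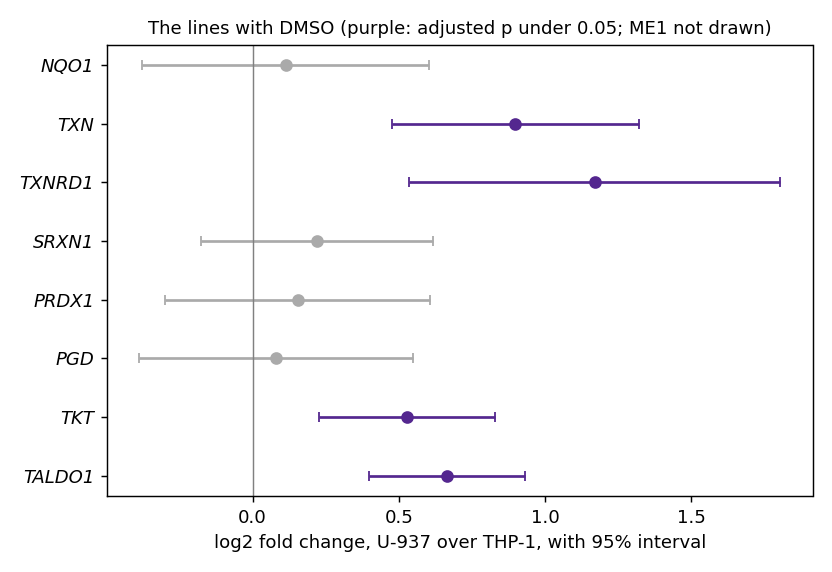
Log2 fold change of U-937 over THP-1 with DMSO, with 95% intervals, from the edgeR fit of all 12 libraries. Purple marks genes with an adjusted p-value under 0.05 (TXN 0.90, TXNRD1 1.17, TKT 0.53 and TALDO1 0.66), and ME1 is left out because it is near 0 in U-937.

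The rest of the pathway was counted in 5 lists. Of 8 NRF2 regulators, 4 were higher (BACH1, MAFF, MAFG, SQSTM1) and 1 lower (CUL3) with honokiol at an unadjusted p-value under 0.05 in THP-1, and 1 was higher (BACH1) and 1 lower (MAFK) in U-937. Of all genes, 6.84% were higher and 6.22% lower by that measure in THP-1, and 8.25% and 8.44% in U-937, and the counts of the lists that follow stand beside the same shares. None of them, and no gene of the other 4 lists, had an adjusted p-value under 0.05 in either line by edgeR. Few genes did by that test, 6 of 14600 in THP-1 and 13 of 13726 in U-937. NFE2L2, the NRF2 gene, had log2 fold changes of 0.04 in THP-1 (edgeR adjusted p = 0.942) and -0.26 in U-937 (edgeR adjusted p = 0.525), and KEAP1, its inhibitor, had -0.04 (edgeR adjusted p = 0.903) and -0.03 (edgeR adjusted p = 0.941). BACH1, the repressor that competes with NRF2, was at 4.86, 5.05 and 5.63 FPKM with DMSO and 6.11, 9.32 and 7.76 FPKM with honokiol in THP-1, and at 3.26, 4.05 and 4.08 against 6.58, 5.81 and 6.85 FPKM in U-937. Its honokiol libraries were higher than all DMSO libraries in both lines, with log2 fold changes of 0.52 (edgeR adjusted p = 0.291) and 0.67 (edgeR adjusted p = 0.0995). Such a separation upwards was seen for 1898 of 14600 genes in THP-1 and for 2287 of 13726 in U-937. MAFF, a small MAF partner of NRF2, had log2 fold changes of 1.84 in THP-1 (edgeR adjusted p = 0.168) and 0.34 in U-937 (edgeR adjusted p = 0.636), and SQSTM1, the autophagy receptor that binds KEAP1, 0.94 (edgeR adjusted p = 0.157) and 0.66 (edgeR adjusted p = 0.404). In THP-1, MAFF lay at 0.30, 0.47 and 0.89 FPKM with DMSO and at 1.38, 2.33 and 2.40 FPKM with honokiol. It passed the limit only with its honokiol libraries, so its place among the higher genes was favoured by the limit.

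Among 12 other thioredoxin system genes, all tested in THP-1, 2 were higher (SESN2, TXNRD3) and 1 lower (TXNIP) at an unadjusted p-value under 0.05, and in U-937, with 11 tested, 4 were higher (PRDX5, SESN2, TXNIP, TXNRD3) and 0 lower, where all genes gave 6.84% and 6.22% (THP-1) and 8.25% and 8.44% (U-937). The median log2 fold changes were 0.08 and 0.17, beside -0.0011 and 0.016 over all genes. TXNIP, which binds and inhibits thioredoxin, was at 42.01, 47.92 and 49.36 FPKM with DMSO and 36.40, 30.72 and 31.38 FPKM with honokiol in THP-1. In U-937 it was at 3.60, 5.64 and 4.93 FPKM with DMSO and 9.31, 12.60 and 14.47 FPKM with honokiol. The libraries separate in opposite directions, downwards in THP-1 (log2 fold change -0.55, edgeR adjusted p = 0.172) and upwards in U-937 (1.28, edgeR adjusted p = 0.0711). Of all genes, 1113 of 14600 separated downwards in THP-1 and 2287 of 13726 upwards in U-937. The difference of the TXNIP responses was 1.82, with an edgeR adjusted p = 0.0274. This call held in 8 of 23 alternatives and was lost with counts divided by 4 (adjusted p = 0.0633), with the replicate block (0.168), on genes past the limit in both lines (0.0573) and by limma (0.0665 to 0.123). SESN2, a stress-induced sestrin, had log2 fold changes of 0.61 (edgeR adjusted p = 0.364) and 1.3 (edgeR adjusted p = 0.0711). The mitochondrial counterparts of the members gave small values, TXN2 0.00 and -0.24 and TXNRD2 0.07 and 0.17, and the peroxiredoxins PRDX2, PRDX3, PRDX4 and PRDX6 lay between -0.35 and 0.22 in the 2 lines.

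Of 14 other NADPH supply genes, 3 were higher in THP-1 (IDH1, ME3, NADK) and 2 in U-937 (IDH1, MTHFD2), taking an unadjusted p-value under 0.05, with 0 lower in either, where 6.84% (THP-1) and 8.25% (U-937) of all genes were higher. The medians were 0.18 and 0.26. IDH1, a cytosolic NADPH source outside the pentose phosphate pathway, was at 22.78, 28.29 and 23.24 FPKM with DMSO and 31.67, 32.92 and 32.09 FPKM with honokiol in THP-1, and at 20.70, 30.49 and 38.49 against 56.15, 56.42 and 53.64 FPKM in U-937. Its treated libraries lay above the controls in both lines, with log2 fold changes of 0.33 (edgeR adjusted p = 0.339) and 0.81 (edgeR adjusted p = 0.125). All treated libraries were higher for 1898 of 14600 genes in THP-1 and for 2287 of 13726 in U-937. ME2, the mitochondrial malic enzyme, had 0.01 and 0.05.

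Of 9 other quinone and carbonyl reductases, 8 were tested in THP-1, where 5 were higher (AIFM2, AKR1B1, AKR1C1, AKR1C2, NQO2) and 0 lower at an unadjusted p-value under 0.05, with a median of 0.41, against 6.84% of all genes higher. In U-937 AKR1A1, CBR1 and NQO2 passed the limit on low values and 0 had such a p-value. AKR1C2 in THP-1 lay at 0.45, 0.59 and 0.42 FPKM with DMSO and at 1.04, 1.44 and 1.76 FPKM with honokiol. It passed the limit only with its honokiol libraries, so its place among the higher genes was favoured by the limit. NQO2, the relative of NQO1, was at 2.36, 2.16 and 2.02 FPKM with DMSO and 3.35, 3.27 and 2.71 FPKM with honokiol in THP-1, a log2 fold change of 0.45 (edgeR adjusted p = 0.363). AKR1B1, an aldo-keto reductase, had a difference of responses of 1.76 (edgeR adjusted p = 0.0210), but its U-937 libraries lay at 0.04 to 0.22 FPKM and it entered that fit through THP-1 alone. Of 13 other NRF2 targets, 12 were tested in THP-1, with 3 higher (BLVRB, HMOX1, SLC7A11) and 1 lower (EPHX1), and 13 in U-937, with 4 higher (BLVRB, HMOX1, SLC7A11, UGDH) and 0 lower, beside the same shares of all genes. HMOX1, which degrades heme, had log2 fold changes of 1.68 (edgeR adjusted p = 0.154) and 1.43 (edgeR adjusted p = 0.0637), and SLC7A11, the cystine carrier, 1.48 (edgeR adjusted p = 0.168) and 1.42 (edgeR adjusted p = 0.0606). Over these targets the log2 fold changes ran from -0.90 to 1.68 in THP-1 (median 0.26) and from -0.57 to 1.43 in U-937 (median 0.34). No log2 fold change of a member reached 0.5 in either line, nor did those of the targets GCLM, GSR, GPX4 and ABCC1.

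**Figure D5:**
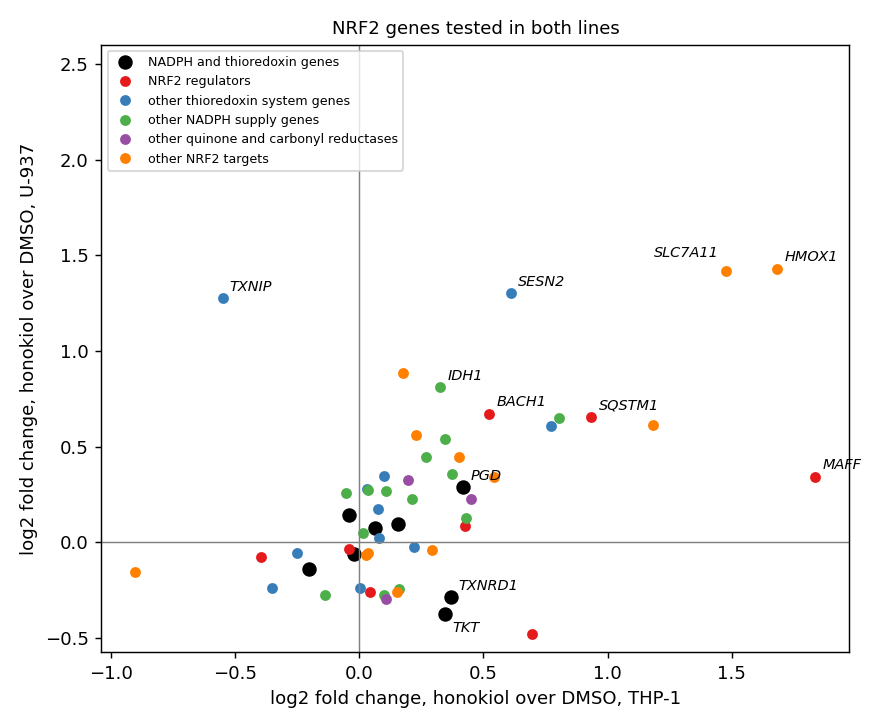
Log2 fold change of honokiol over DMSO in U-937 (vertical axis) against that in THP-1 (horizontal axis) for the NRF2 genes tested in both lines, from edgeR; the 2 lines share no libraries. The NADPH and thioredoxin genes (large black points) lie within 0.5 of 0 on both axes, as do other NRF2 targets such as GCLM (0.29, -0.04) and GSR (0.04, -0.05). HMOX1 (1.68, 1.43) and SLC7A11 (1.48, 1.42) lie far out on both, and TXNIP (-0.55, 1.28) to the upper left.

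Over the 12 libraries, with the mean of each line removed, the members other than ME1, which was left out as near 0 in U-937, did not vary as 1 group. Correlations of log2 values were highest for TXN with PRDX1 (r = 0.73), NQO1 with SRXN1 (0.69), TXN with TALDO1 (0.64) and TXNRD1 with SRXN1 (0.60), and lowest for NQO1 with TKT (-0.45). These are descriptions of libraries that share their line's treatment and depth, and DMSO replicate 1 is low in TXN, PRDX1 and, in U-937, TALDO1. Of 16282 genes compared in the same way, those most like NQO1 were SYS1 (r = 0.90), NFE2L1 (0.89), MSANTD2 (0.89), AC004980 (0.88) and ALG12 (0.87). Those most like TXNRD1 were AC135050 (0.88), MIR1291 (0.86), STK4 (0.83), SERPINB9 (0.83) and RABL2B (0.81).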

How the data were processed

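Poly(A) mRNA of 12 libraries was sequenced by the authors in paired-end mode, 3 for each line and treatment. The deposited table gives, per gene and library, an FPKM value, scaled by the authors to transcript length and library size, and an estimated count, which the authors did not normalize. The submitters' processing notes name Bowtie 0.12.2, HISAT2 2.0, StringTie 1.3.0 and the mouse build mm8, whereas the coordinates match human GRCh38 (GENCODE 29). Columns of the authors' own comparisons were not used.

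Members and lists were chosen with earlier results of these data known: the 9 genes by name, and 5 lists of pathway genes, counted whatever they did. A result of 1 list gene is not reported here. Also printed for NQO1 and TXNRD1 are the 5 genes most correlated with each.

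The estimated counts, being whole numbers, were fitted with edgeR 4.0.16 (R 4.3.3; quasi-likelihood test, TMM, no block). Each line was fitted on genes that reached 0.5 FPKM in 3 or more of 6 libraries, and the differences between lines in all 12 libraries, on genes that did so in 3 or more of 12. p-values were adjusted over all tested genes. The standard error is the log2 fold change divided by the root of F, and intervals are 95%. Calls used an unadjusted p-value under 0.05 for responses and an adjusted one between the lines. The fits were also run on simulated whole-number counts with known changes. Those were drawn with the spread estimated from these data, so they cannot test the effect of about 4 counts a fragment.

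Alternatives were RLE size factors, no filter, DESeq2 1.42.0, limma 3.58.1 on log2(FPKM + 0.5), with 0.1 or 1 in place of 0.5, counts divided by 4, a replicate block, other sets of libraries, and each replicate left out. Leaving out both DMSO replicate 1 libraries, or mitochondrially encoded genes, was added after the values were seen.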

Additional observations from a re-analysis of the deposited data

Results flagged for a closer look

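TKT had its libraries apart in both lines and in opposite directions, higher with honokiol in all 3 treated THP-1 libraries and lower in all 3 treated U-937 libraries. Among all genes, 13% lay higher in this way in THP-1 and 7.5% lower in U-937, and how many did both was not counted. The difference of the TKT log2 fold changes, U-937 minus THP-1, was -0.73, with an unadjusted p = 0.0029 and an adjusted p = 0.298 from edgeR. It thus failed the correction over all genes, and with DESeq2 the adjusted p was 0.0390. An unadjusted p-value under 0.05 for the difference (edgeR) was found for 1 of 9 members, close to the 9.37% of all genes. TXNIP, which is no member, had a difference of 1.82 with an adjusted p = 0.0274 from edgeR, a call that held in 8 of 23 alternatives (it was lost with counts divided by 4, the replicate block and genes past the limit in both lines, among others), lower in all treated THP-1 libraries and higher in all treated U-937 libraries. AKR1B1, also no member, had a difference of 1.76 with an adjusted p = 0.0210 from edgeR, a call that held in 10 of 22 alternatives, while limma gave values from -0.20 to 0.69, and it lay under 0.5 FPKM in every U-937 library. AKR1B1 was named after its values were seen. The dose cannot be told apart from the line in these differences.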

How the results depend on the processing

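The number of members with an unadjusted p-value under 0.05 in THP-1 was 1, and became 0 with RLE size factors and without mitochondrially encoded genes, and 2 (ME1 and TKT) with limma at any of the 3 pseudocounts; with each replicate left out it ranged from 0 to 4. The 4 were ME1, PGD and TKT (higher) and PRDX1 (lower), without DMSO replicate 1; without honokiol replicate 1 there were 3 (ME1, PGD, TKT). In U-937 the number was 1, became 0 with limma at pseudocounts of 0.5 and 1, and ranged from 0 (without honokiol replicate 2 or 3) to 2 (TKT with PRDX1 without DMSO replicate 1, or with TXNRD1 without DMSO replicate 3). For the difference of the responses it was 1, became 2 with limma at a pseudocount of 1 and without both DMSO replicate 1 libraries, and ranged from 1 to 2 with each replicate left out, ME1 being the added gene. Between the lines with DMSO it was 5 in every alternative. The cause was not tested.

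No clear sign was seen that replicate numbers pair the samples. Deviations from the group means correlated at -0.152, -0.222 and 0.135 for the same numbers in THP-1 and at -0.175, -0.138 and -0.178 in U-937. For other numbers they correlated at -0.112 to 0.292 in THP-1 and at -0.156 to 0.320 in U-937. Deviations within a group of 3 depend on one another, so these few values cannot exclude a pairing. With the number as a replicate block, 0 members had an unadjusted p-value under 0.05 in THP-1 and 0 in U-937, 1 in the difference of the responses and 5 between the lines.

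Signs turned for values near 0. With limma at pseudocounts of 0.5, 0.1 and 1, the log2 fold changes in THP-1 were 0.0088, 0.0090 and 0.0085 for NQO1 and 0.033, 0.034 and 0.032 for SRXN1, and in U-937 they were 0.027, 0.028 and 0.027 for SRXN1. With each replicate left out, the values in THP-1 ranged from -0.24 to 0.13 for NQO1, -0.067 to 0.15 for TXN, -0.088 to 0.56 for TXNRD1 and -0.13 to 0.10 for SRXN1. In U-937 they ranged from -0.036 to 0.27 for NQO1, -0.12 to 0.21 for TXN and -0.18 to 0.079 for SRXN1, and between the lines from -0.017 to 0.28 for NQO1, -0.037 to 0.34 for PRDX1 and -0.025 to 0.26 for PGD. Of 471 single-gene alternatives counted, 418 kept their direction and side of the threshold. Among the differences of the responses, this count took in only those of TKT and TXNRD1. Over the alternatives, sign changed for the differences of PRDX1 (-0.13 to 0.24), TXN (-0.19 to 0.14), SRXN1 (-0.17 to 0.086), NQO1 (-0.0039 to 0.37), TALDO1 (-0.20 to 0.0035) and ME1 (-1.99 to 4.63). That of PGD kept its sign (-0.33 to -0.010).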
